A study of Mus musculus with 5 samples.

Results

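The guide strands mmu-miR-15a-5p, mmu-miR-15b-5p, mmu-miR-16-5p, mmu-miR-195a-5p and mmu-miR-497a-5p belong to a single seed family, and are called below without the species prefix. They were taken by name as 5 of the 1966 mature miRNA rows of the table. Any count at all was found for 4 of them, and 3 had enough counts to be tested between groups. The small RNA came from extracellular vesicles (EVs), the membrane particles that cells shed, here collected from the medium of mouse mesenchymal stem cells. The study compared the miRNA content of these EVs after freeze-drying with that of EVs left unmodified.

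The freeze-dried group had 3 libraries. Its EVs were frozen at -80 °C in buffer with 25 mM trehalose, a sugar used as a protectant, then dried overnight and given 1 h to take up water again. The not freeze-dried group had 2 libraries of unmodified EVs, for which no trehalose, freezing or rehydration is given. Drying, freezing, trehalose and rehydration therefore cannot be told apart in this comparison. Ultracentrifugation took 110 min in both groups. Both groups came from cells of C57BL/6-GFP transgenic mice that were held for 48 h in serum-reduced medium. No label says whether replicates came from separate cultures or EV batches, so the p-values describe the spread between these libraries, which may be technical. Library totals were 2914305, 2473178 and 192450 counts in freeze-dried EVs and 912080 and 131507 counts in not freeze-dried EVs. Libraries with 500000 counts or more are called deep and the other 2 shallow. All 14 miRNAs of a mesenchymal list had counts, and together they took 20.5% ± 1.7 of the counts in freeze-dried EVs (SD, n = 3) and 26.4% ± 1.4 in not freeze-dried EVs (SD, n = 2). This does not check the labelled source, because the list was chosen with earlier results of these data known. Counts were also found for 4 of 5 red cell and 4 of 6 leukocyte miRNAs.

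A miRNA guide strand is loaded into an Argonaute protein and pairs with messenger RNAs mainly through its seed, the bases 2 to 8 from its 5′ end. Members of this family are known to repress messenger RNAs for cyclins and other proteins that drive the cell from G1 into S phase, and for the survival protein BCL2. The human miR-15a and miR-16-1 genes lie in a region that is often deleted in chronic lymphocytic leukemia, and miR-16 is also abundant in blood cells. In mice, miR-195 and miR-497 have been linked to withdrawal from the cell cycle in heart muscle and to quiescence of muscle stem cells.

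The mature sequences, from RefSeq on GRCm38.p6, are shown because they define the family and show how far its members can be told apart by a read. Capitals mark the seed.
miR-16-5p: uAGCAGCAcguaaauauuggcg
miR-195a-5p: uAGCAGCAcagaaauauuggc
miR-15a-5p: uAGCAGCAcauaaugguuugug
miR-15b-5p: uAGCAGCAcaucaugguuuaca
miR-497a-5p: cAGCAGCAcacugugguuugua
All 5 carry the same seed and differ downstream of it, and miR-497a-5p also differs at its first base. With positions counted from the 5′ end, miR-195a-5p differs from miR-16-5p at only 2 of the 21 positions they share, by G10A and U11G. miR-15b-5p differs from miR-15a-5p at 4 of 22 positions, by A12C, G20A, U21C and G22A. miR-497a-5p is the farthest from miR-16-5p, with 11 of 22 positions identical.

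These guides come from 6 hairpins at 3 places in the genome (GRCm38, GENCODE M21). The miR-15a hairpin at chr14:61632027-61632110 and the miR-16-1 hairpin at chr14:61631880-61631972 lie on the minus strand 54 bases apart within the non-coding gene Dleu2. The miR-15a hairpin is intronic there, and the miR-16-1 hairpin overlaps an annotated exon. The miR-15b hairpin at chr3:69009772-69009835 and the miR-16-2 hairpin at chr3:69009902-69009996 lie on the plus strand 66 bases apart in an intron of Smc4, which encodes a condensin subunit. The miR-497a hairpin at chr11:70234717-70234800 and the miR-195a hairpin at chr11:70235042-70235135 lie on the plus strand 241 bases apart, within no other gene on that strand. The miR-497b hairpin overlaps that of miR-497a on the minus strand, and its miRNA had 0 counts in all 5 libraries. The mature miR-16-5p is identical from both of its hairpins, so its counts cannot be divided between chromosomes 14 and 3. How the authors' counting treated reads with several matches is not given in the sources used here.

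miR-16-5p was the most abundant member, miR-15b-5p was next, and miR-15a-5p and miR-497a-5p were near the lower limit of the libraries. miR-16-5p had 9804, 8212 and 641 counts in the freeze-dried libraries, and 4614 and 759 counts in the not freeze-dried ones. These were 0.336%, 0.332% and 0.333% of all counts in freeze-dried EVs, against 0.506% and 0.577% in not freeze-dried EVs. All 3 freeze-dried libraries lay below both not freeze-dried ones. By mean normalised level it ranked 44 of the 327 miRNAs tested. The exact 95% binomial (Clopper-Pearson) intervals of the freeze-dried shares overlapped each other, the widest running from 0.308% to 0.360%, and none reached the lower bound of 0.491% in not freeze-dried replicate 1. Reads that lack molecular identifiers can repeat 1 molecule, so these intervals and the limits below reflect counting error alone. In pooled EVs, a lower share cannot tell apart fewer vesicles that carry a miRNA, fewer copies per vesicle and more of other miRNAs.

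miR-15b-5p had 5889, 2334 and 255 counts in the freeze-dried libraries, and 2158 and 204 counts in the not freeze-dried ones. Its shares were 0.202%, 0.0944% and 0.133% in freeze-dried EVs, against 0.237% and 0.155% in not freeze-dried EVs. Here the groups overlapped, because freeze-dried replicate 1 lay between the 2 not freeze-dried libraries. The 3 freeze-dried libraries also differed from each other by more than their counting intervals. miR-15b-5p ranked 68 of 327 by mean level.

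miR-15a-5p had 0, 129 and 36 counts in the freeze-dried libraries, and 21 and 0 counts in the not freeze-dried ones. The highest share, 0.0187%, was in the shallow freeze-dried replicate 3. The deepest library, freeze-dried replicate 1, had no count and so allows at most 0.000103%, taking 3 counts as the limit of a count of 0. The groups overlapped, and the spread among the freeze-dried replicates was wider than counting error gives. miR-497a-5p had 66, 0 and 0 counts in the freeze-dried libraries, and 2 and 0 counts in the not freeze-dried ones. With nearly all of its counts in 1 library, it did not pass the low-count filter.

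miR-195a-5p had 0 counts in all 5 libraries, or 0 of 6623520 counts. That allows a share of up to 5.38e-05% over the freeze-dried libraries and up to 0.000287% over the not freeze-dried ones, by counting error only. It was therefore not detected at this depth, although miR-16-5p, which differs from it at 2 positions, was found in every library. No fold change can be given for it.

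**Figure D1:**
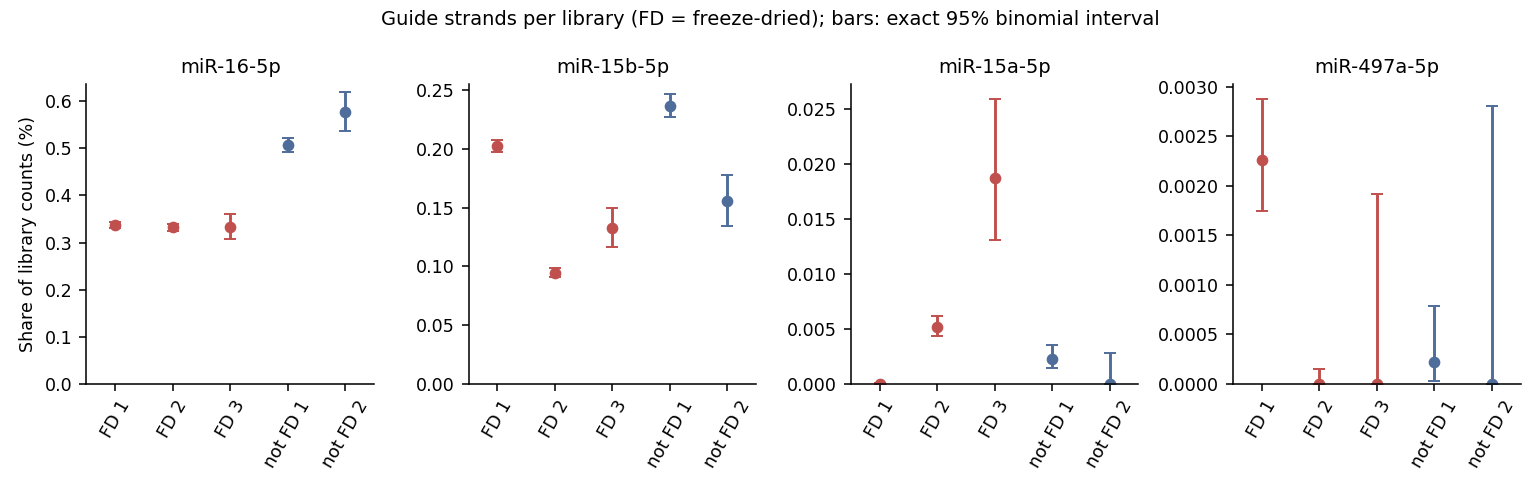
Share of all counts of a library (%) for the 4 guide strands with counts, in the 3 freeze-dried (FD) and 2 not freeze-dried libraries; each panel has its own scale from 0, and bars are exact 95% binomial intervals. The miR-16-5p shares of the freeze-dried libraries lie at 0.332% to 0.336%, below both not freeze-dried ones, while the groups overlap for the other 3 members.

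The order of the members was steady at the top and not at the bottom. miR-16-5p was above miR-15b-5p in 5 of 5 libraries, and miR-15b-5p was above miR-15a-5p in 5 of 5. miR-15a-5p was above miR-497a-5p in 3 libraries, below it in 1 and equal at 0 in 1, so these neighbours did not differ beyond their spread. The mature sequences span 21 or 22 bases, so read counts need no correction for length, but ligation preferences between sequences were not measured. miR-16-5p made up 69.3% ± 7.4 of the counts of the 5 members in freeze-dried EVs (SD, n = 3) and 73.4% ± 7.7 in not freeze-dried EVs (SD, n = 2). miR-15b-5p made up 28.9% ± 7.9 in freeze-dried EVs (SD, n = 3) and 26.5% ± 7.5 in not freeze-dried EVs (SD, n = 2).

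Together the 5 members took 0.541%, 0.432% and 0.484% of the counts in the freeze-dried libraries, against 0.745% and 0.732% in the not freeze-dried ones. The highest freeze-dried share lay below the lower of the not freeze-dried shares. Most of these counts were of miR-16-5p, so the sum largely repeats its pattern. By normalised level, 57 of the 327 single miRNAs tested (17.4%) also had groups that did not overlap. The means were 0.486% ± 0.055 in freeze-dried EVs (SD, n = 3) and 0.739% ± 0.009 in not freeze-dried EVs (SD, n = 2), a difference of -0.253 percentage points, for which no test was made. Within the deep libraries the shares averaged 0.486% in 2 freeze-dried libraries and 0.745% in 1 not freeze-dried library, and within the shallow libraries they were 0.484% in 1 freeze-dried library and 0.732% in 1 not freeze-dried library. Shares of a total also depend on the other miRNAs. On the total scaled by TMM, a normalization that sets most miRNAs level between libraries, the difference was -0.196 percentage points. Without the let-7 guides, which took 36.5% ± 3.6 of the counts in freeze-dried EVs (SD, n = 3) and 27.4% ± 1.0 in not freeze-dried EVs (SD, n = 2), it was -0.249. That smaller total raises the shares of both groups, and more so in freeze-dried EVs. Points on the 2 totals are therefore not on the same scale, and relative to the shares the gap was smaller without let-7.

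**Figure D2:**
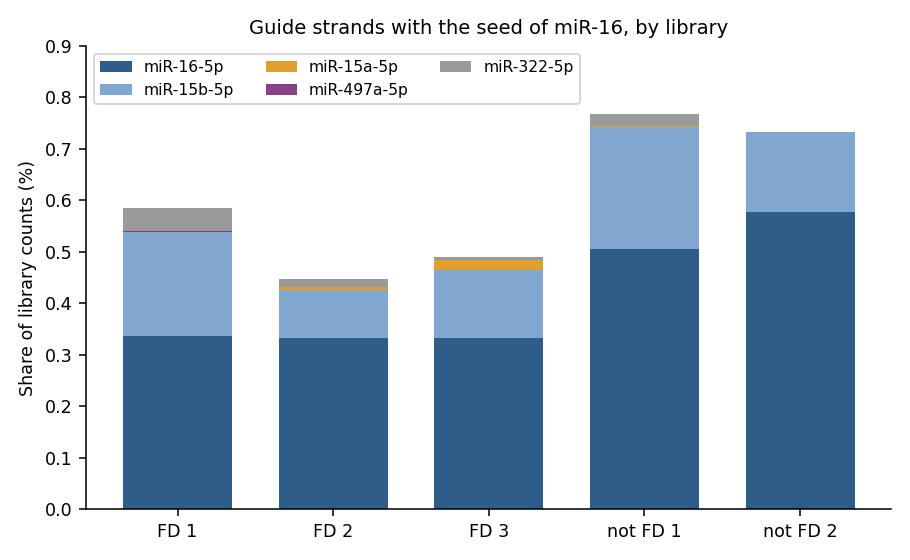
Stacked shares of all counts of a library (%) for the guide strands that carry the family seed and had counts, with miR-322-5p on top in grey, in the 3 freeze-dried (FD) and 2 not freeze-dried libraries. miR-16-5p is the largest block in every bar, and the 5 members reach 0.432% to 0.541% in freeze-dried EVs against 0.732% and 0.745% in not freeze-dried EVs.

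The comparison of freeze-dried with not freeze-dried EVs called none of the 3 tested members. edgeR's quasi-likelihood test was run over 327 miRNAs, with Benjamini-Hochberg adjustment and a threshold of 0.05. Over all 327 miRNAs it called 0 higher (0%) and 0 lower (0%). Before adjustment, 9 miRNAs (2.75%) were under 0.05 in edgeR, 16 in DESeq2 and 15 in limma-voom, and the last 2 tools also called 0 after it. Across the 327 miRNAs the median log2 fold change was 0.02.

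miR-16-5p had TMM-normalised levels of 3562, 3185 and 3644 CPM (counts scaled to a common library size) in the freeze-dried libraries, and 4521 and 5809 CPM in the not freeze-dried ones. The freeze-dried mean was 3464 ± 245 CPM (SD, n = 3) and the not freeze-dried mean 5166 ± 911 CPM (SD, n = 2). On the log2 scale the fold change was -0.58, with an SE of 0.29 and a 95% interval of -1.23 to 0.07, a fold of 0.671 with an interval of 0.427 to 1.05. The edgeR p was 0.077, with an adjusted p of 0.98. Such a gap between the groups was seen for 57 of the 327 tested miRNAs (17.4%), of which 28 (8.56%) had the freeze-dried libraries all lower, as miR-16-5p did, and 29 (8.87%) all higher. The fold change stayed below 1 under all 15 alternatives run, with log2 values from -0.70 to -0.43, unadjusted p from 0.039 to 0.35 and adjusted p from 0.79 to 0.999. In raw shares the mean of the 2 deep freeze-dried libraries was 0.661 of the value in the 1 deep not freeze-dried library. The 1 shallow freeze-dried library had 0.577 of the value in the 1 shallow not freeze-dried library.

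For miR-15b-5p the freeze-dried mean was 1498 ± 619 CPM (SD, n = 3) and the not freeze-dried mean 1838 ± 391 CPM (SD, n = 2). The log2 fold change of -0.30 (SE 0.44, interval from -1.29 to 0.69; edgeR adjusted p = 0.98) lay within the spread between libraries. Without not freeze-dried replicate 1 the log2 fold change was 0.0036, and without freeze-dried replicate 2 it was -0.041. For miR-15a-5p the freeze-dried mean was 84.9 ± 106.7 CPM (SD, n = 3) and the not freeze-dried mean 10.3 ± 14.6 CPM (SD, n = 2). The log2 fold change of 2.88 had an SE of 2.92 and an interval of -3.67 to 9.42 (edgeR adjusted p = 0.98), so these libraries give it no direction. The value was -1.43 with limma-voom and -1.21 with the replicate number as a block.

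**Figure D3:**
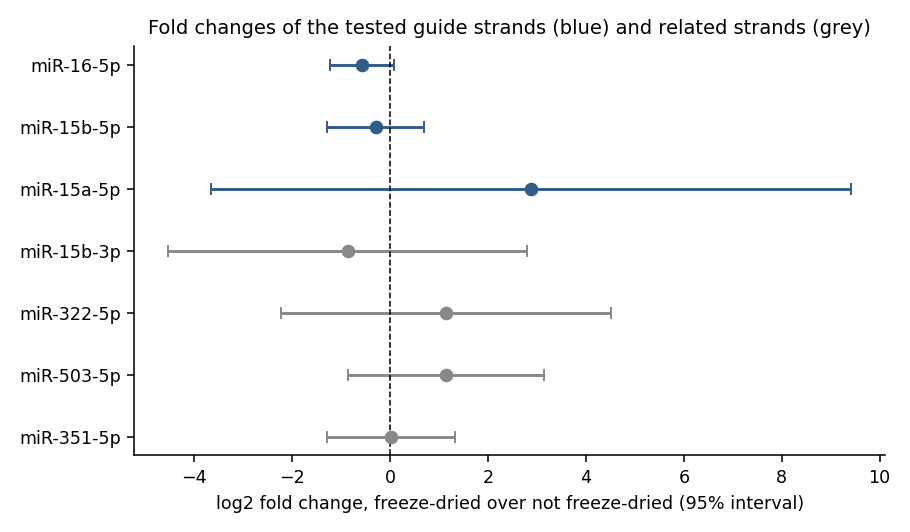
log2 fold change, freeze-dried over not freeze-dried EVs, with its 95% interval from edgeR, for the 3 tested guide strands in blue and 4 related strands in grey; the dashed line marks no difference. All 7 intervals include 0, and those of miR-16-5p (-1.23 to 0.07) and miR-15b-5p (-1.29 to 0.69) are the narrowest of the 7.

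A ratio of 2 members within a library needs no normalization, but the log2 ratios use a pseudocount of 0.5 counts and so depend on depth where a count is 0 or low. For each 100 counts of miR-16-5p, miR-15b-5p had 60.1, 28.4 and 39.8 counts in the freeze-dried libraries, and 46.8 and 26.9 in the not freeze-dried ones. The groups overlapped, and the ratio varied as much within a group as between groups. The mean log2 ratio was -1.29 ± 0.54 in freeze-dried EVs (SD, n = 3) and -1.49 ± 0.56 in not freeze-dried EVs (SD, n = 2). An exact permutation test, two-sided, gave p = 0.80, or 1 when adjusted over 2 ratios, with 0.2 the smallest p it can give. The difference of 0.20 became -0.077 without freeze-dried replicate 1 and -0.20 without not freeze-dried replicate 2. For each 1000 counts of miR-16-5p, miR-15a-5p had 0, 15.7 and 56.2 counts in the freeze-dried libraries, and 4.55 and 0 in the not freeze-dried ones (exact two-sided permutation p = 1, adjusted 1). This difference in log2 ratio was 1.03, or 2.25 with all libraries thinned to the depth of the shallowest, and turned to -0.040, -0.97 and -0.38 without freeze-dried replicate 2, freeze-dried replicate 3 and not freeze-dried replicate 2. The ratio of miR-195a-5p to miR-497a-5p could not be formed, since miR-195a-5p had no counts.

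The opposite arms were rarer than their guides except at the miR-195a hairpin, and miR-15b-3p was the only one of them found in every library. miR-15b-3p had 319, 129 and 4 counts in the freeze-dried libraries, and 74 and 21 in the not freeze-dried ones. For each 100 counts of miR-15b-5p this was 5.42, 5.53 and 1.57 in freeze-dried EVs, and 3.43 and 10.3 in not freeze-dried EVs. The lowest and the highest of these were in the 2 shallow libraries, from 4 and 21 counts. Its log2 fold change was -0.87 (SE 1.64; edgeR adjusted p = 0.98).

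**Figure D4:**
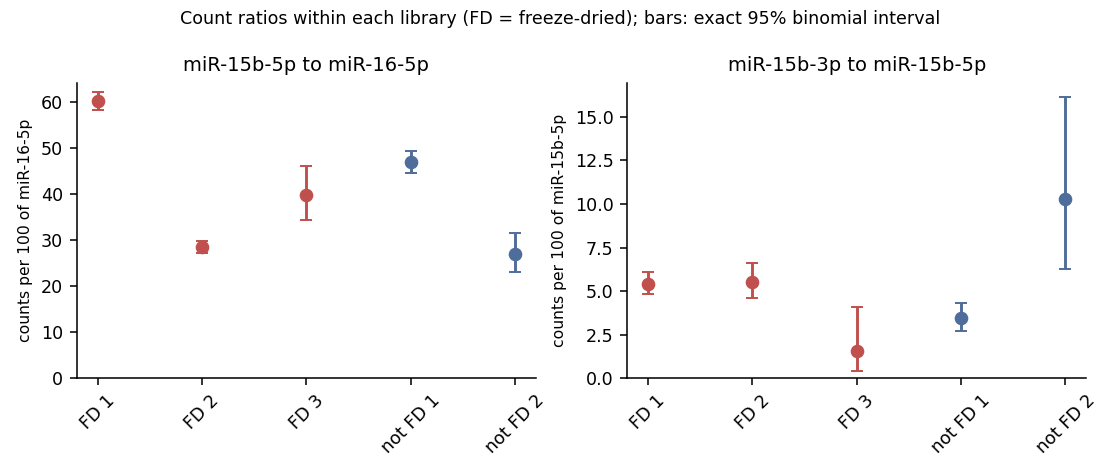
Counts of miR-15b-5p per 100 counts of miR-16-5p (left) and of miR-15b-3p per 100 counts of miR-15b-5p (right) in the 3 freeze-dried (FD) and 2 not freeze-dried libraries, with exact 95% binomial intervals. The groups overlap in both panels, the left from 28.4 to 60.1 in freeze-dried EVs against 26.9 and 46.8 in not freeze-dried EVs.

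The opposite arms differ in sequence between the 2 miR-16 hairpins, unlike the identical miR-16-5p guides. miR-16-1-3p, from chromosome 14, had 156 counts in freeze-dried replicate 1 and 0 in the other 4 libraries. miR-16-2-3p, from chromosome 3, had 72 counts in freeze-dried replicate 2 and 0 in the other 4. Each of these arms thus had counts in only 1 of the 2 deepest libraries. How reads with several matches were counted is not given, so these counts do not settle which hairpins were represented. The 0 counts in freeze-dried replicate 2 limit miR-16-1-3p there to 0.000121%, against 0.00535% in freeze-dried replicate 1, so replicates of similar depth differed beyond counting error. miR-195a-3p had 62 counts in freeze-dried replicate 2 and 0 in the other 4, although its guide had none anywhere. The arms miR-15a-3p and miR-497a-3p had 0 counts in all 5 libraries. Among these arms, 2 with similar sequences are shown with bases 2 to 8 in capitals, since their reads could be hard to separate.
miR-16-1-3p: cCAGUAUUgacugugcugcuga
miR-195a-3p: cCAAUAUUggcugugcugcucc
miR-195a-3p differs from miR-16-1-3p by G4A, A10G, G21C and A22C, counted from the 5′ end, and the counts of these 2 arms lay in different libraries. No other pair of arms was compared. That includes miR-16-2-3p and miR-195a-3p, which both had their counts in freeze-dried replicate 2.

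Of the mature miRNAs in RefSeq, 10 names carry the family seed, and all 10 have a row in the table. Besides the 5 members these are miR-322-5p, miR-195b, miR-6342, miR-6353 and miR-6419. The last 4 had 0 counts in all 5 libraries. miR-322-5p, the mouse counterpart of human miR-424, is shown to compare its 3′ part with those above.
miR-322-5p: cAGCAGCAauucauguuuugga
Its sequence is identical to miR-16-5p at 12 of 22 positions. It had 1325, 398 and 11 counts in the freeze-dried libraries, and 205 and 1 in the not freeze-dried ones. With a log2 fold change of 1.13 (SE 1.51; edgeR adjusted p = 0.98) it did not differ beyond its spread. The opposite arm of that hairpin was far more abundant. For each 100 counts of miR-322-3p, miR-322-5p had 6.44, 1.94 and 3.24 counts in freeze-dried EVs, and 2.94 and 0.467 in not freeze-dried EVs.

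The X-linked cluster of miR-322, miR-503 and miR-351, also linked to cell-cycle arrest, varied with library depth in a way that miR-16-5p did not. miR-351-5p had 8172, 8390 and 3013 CPM in the freeze-dried libraries, and 9278 and 3659 in the not freeze-dried ones. The 3 deep libraries were high and the 2 shallow ones low in both groups. miR-503-5p, whose bases 2 to 7 match the family seed, had 883, 2163 and 262 CPM in the freeze-dried libraries, and 709 and 291 in the not freeze-dried ones. The log2 fold changes were 0.01 (SE 0.55) for miR-351-5p and 1.14 (SE 0.87) for miR-503-5p, each with an adjusted p of 0.98 or more from edgeR. Their difference from miR-16-5p was not tested.

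Other miRNAs linked to the cell cycle were not called either. In a list of 14 miRNAs linked to arrest, which includes miR-322-5p and miR-503-5p, 11 were tested, with 6 fold changes above 1, 5 below and a median log2 fold change of 0.05. Its most abundant were miR-24-3p, which represses E2F2 and MYC messenger RNAs, at -0.50 (SE 0.26; edgeR adjusted p = 0.98), and miR-26a-5p at 0.09 (SE 0.28). In a list of 13 miRNAs linked to proliferation, 12 were tested, with 5 above 1, 7 below and a median of -0.05, led by miR-21a-5p at -0.28 (SE 0.33). The guides of the clusters of miR-17 and miR-106b, all also in that list, had 4 of 8 tested members above 1 and a median of -0.06, led by miR-92a-3p at -0.18 (SE 0.81) and miR-25-3p at 0.05 (SE 0.27). The let-7 guides had 7 of 9 above 1 and a median of 0.44, led by let-7c-5p at 0.67 (SE 0.24) and let-7b-5p at 0.71 (SE 0.25), each with an adjusted p of 0.98. In each list 0 were called higher and 0 lower. The median over the 3 tested family members was -0.30.

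Because blood cells are rich in miR-16, their own miRNAs are given beside it. Of 5 red cell miRNAs, 4 had counts and miR-144-5p had none. Their summed share was 0.0922% to 0.170% in freeze-dried EVs and 0.0758% to 0.120% in not freeze-dried EVs. miR-451a, a member of this list, had 715, 534 and 58 counts in the freeze-dried libraries, and 246 and 24 in the not freeze-dried ones. All 3 tested members of the list, miR-486a-5p at 0.37 (SE 0.68), miR-486b-5p at 0.51 (SE 0.94) and miR-451a at 0.32 (SE 0.92), had log2 fold changes above 0, the opposite sign to miR-16-5p, and none was called by edgeR (adjusted p = 0.98 each). Of 6 leukocyte miRNAs, 4 had counts, and both arms of miR-142a had 0 in all 5 libraries. Their summed share was 0.146% to 0.243% in freeze-dried EVs and 0.100% to 0.186% in not freeze-dried EVs, and all 4 were tested, with 2 fold changes above 1, 2 below and a median log2 fold change of 0.04. The higher values were those of miR-155-5p at 0.59 (SE 0.65) and, on the same scale, miR-342-3p at 0.81 (SE 0.56). The values below 0, the same sign as miR-16-5p, were -3.14 for miR-150-5p (95% interval -8.29 to 2.01) and -0.51 for miR-223-3p (95% interval -6.79 to 5.77). miR-150-5p had 38.5, 0 and 5.69 CPM in the freeze-dried libraries, and 154 and 115 CPM in the not freeze-dried ones, so its groups did not overlap. The groups of miR-342-3p did not overlap either, in the other direction. It had 641, 893 and 1143 CPM in the freeze-dried libraries, and 388 and 628 CPM in the not freeze-dried ones. Over all tested miRNAs, 57 of 327 (17.4%) had groups that did not overlap. miR-223-3p had 40, 0 and 16 counts in the freeze-dried libraries, and 97 and 0 in the not freeze-dried ones, so its groups overlapped. edgeR called none of the 4 (adjusted p = 0.98 for miR-150-5p and miR-223-3p). The part of blood-derived miRNAs in the miR-16-5p level was not tested.

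The profile of miR-16-5p over the 5 libraries was compared with those of 87 miRNAs outside the family averaging 1000 CPM or more. The measure was the root mean square distance between log2 profiles, each centred on its own mean. The nearest was miR-183-5p at a distance of 0.063, with 2504, 2013 and 2337 CPM in the freeze-dried libraries, and 2924 and 4034 in the not freeze-dried ones. Next was miR-99b-5p at 0.14, with 15000.1, 13788 and 12889 CPM in the freeze-dried libraries, and 17513 and 19549 in the not freeze-dried ones. The median distance was 0.50. Of the family itself, miR-15b-5p lay at 0.44 from miR-16-5p, and its own nearest neighbours were miR-99a-5p at 0.31 and let-7f-5p at 0.33. These distances describe 5 libraries and rest on their shared normalization and depth.

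**Figure D5:**
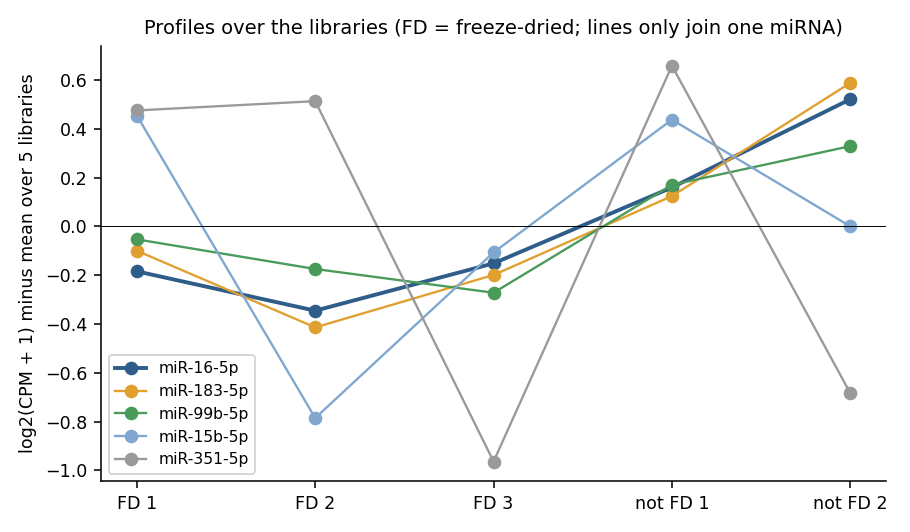
log2(CPM + 1) minus its mean over the 5 libraries, for miR-16-5p, its 2 nearest miRNAs, miR-15b-5p and miR-351-5p, in the 3 freeze-dried (FD) and 2 not freeze-dried libraries; lines join the points of 1 miRNA and imply no order. miR-16-5p and miR-183-5p are below their means in all 3 freeze-dried libraries and above them in both not freeze-dried ones, while miR-351-5p is low in the 2 shallow libraries.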

How the data were processed

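The values are raw counts of reads for each mature miRNA, as deposited by the authors, with 1 column per library and 1966 rows, of which 517 had a count. Per the submitters' processing notes, the tools were cutadapt 2.3, bcl2fastq 2.20, FastQC, featureCounts 1.5.0-p1 and Bowtie 1.1.2, and the build was GRCm38; their roles are not stated. The sources used here do not give the miRNA annotation, the strand setting or any removal of duplicates.

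Samples were grouped by title. Counts of the whole table were fitted with edgeR 4.0.16 in R 4.3.3 (robust quasi-likelihood F test after TMM scaling and filterByExpr), which left 327 miRNAs. CPM are TMM-scaled, and shares are of raw totals. The SE of a log2 fold change is its size over the square root of F. Ratios used a pseudocount of 0.5 counts and exact permutation tests in scipy 1.17.1. Functions were tested on simulated counts. DESeq2 1.42.0, limma-voom from limma 3.58.1 and other alternatives are in the closing section.

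The 5 members and the miRNA lists were chosen with earlier results of these data known. Also named are opposite arms, miRNAs with the same seed, the 2 nearest profiles for members of at least 100 CPM, and the 2 most abundant of each list. Of the 1966 names, 1675 matched a RefSeq sequence.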

Additional observations from a re-analysis of the deposited data

How the results depend on the processing

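miR-16-5p was lower in freeze-dried EVs under all 15 alternatives, with log2 fold changes of -0.70 (library totals only) to -0.43, and was called by none. The count of 0 called higher held in all 15. The count of 0 called lower became 1 in the deep libraries only and 4 with the replicate block, none of them a family member, and stayed 0 without any 1 library. The log2 fold change of miR-15b-5p ranged from -0.63 to 0.0036 without 1 library. That of miR-15a-5p became -1.43 with limma-voom and -1.21 with the replicate block, and ranged from 1.16 to 9.90 without 1 library. The difference in log2 ratio ranged from -0.20 to 0.60 for miR-15b-5p to miR-16-5p and from -0.97 to 4.10 for miR-15a-5p to miR-16-5p without 1 library, and the second became 2.25 after thinning. The causes were not tested. The share difference of -0.253 points became -0.196 on TMM-scaled totals and ranged from -0.281 to -0.226 without 1 library. Library totals alone shift the median log2 fold change of all miRNAs by -0.11. With the replicate block miR-16-5p stood at -0.61 (SE 0.45). The replicate numbers form 2 pairs, whose deviations from their group means correlate at 0.15 and -0.11. With 2 not freeze-dried libraries these deviations are mirror images of each other, so the 2 values cannot decide whether replicates are paired. miR-195a-5p and miR-497a-5p did not enter the fit, and miR-15a-5p was not tested under the stricter filter or after thinning. Leaving out a not freeze-dried library leaves 1, whose variation is then taken to equal that of the freeze-dried group. Counts of 36 or fewer in the shallow libraries limit miR-15a-5p and the opposite arms.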

Other observations

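Some values were noticed after the data were seen and belong to no comparison above. Among the 89 miRNAs averaging 1000 CPM or more, miR-16-5p had the lowest coefficient of variation of the raw share over the 3 freeze-dried libraries, at 0.684% against a median of 25.2%. The counting interval of its share in freeze-dried replicate 3 alone, 0.308% to 0.360%, was wider than the spread of the 3 shares. So low a coefficient cannot be taken as a measure of stability. In TMM-normalised CPM the coefficient of miR-16-5p was 7.07%, the sixth lowest of the 89, against a median of 23.1%. miR-15b-5p ranked 67 of 89 in raw shares, at 38.2%, and 72 of 89 in CPM, at 41.3%. Counts confined to 1 library were not limited to the family's hairpins. The red cell miRNA miR-144-3p had 163 counts in freeze-dried replicate 2 and 0 in the other 4 libraries.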
